A study of Homo sapiens with 6 samples.

Results

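The caspase genes described here were CASP14 and 7 relatives that act in apoptosis or inflammation, namely CASP8, CASP10, CASP9, CASP2, CASP6, CASP1 and CASP4. These 8 genes were taken by symbol from a count table of 36517 genes. They had been picked with the difference between the groups already known, so their own values are a description and carry no test. The cells were MDA-MB-453, a human breast cancer line with luminal and apocrine features, sampled at day 3. The 3 shtRF libraries came from cells transduced with a lentivirus that expresses a short hairpin RNA against tRF-1-Ser. This small RNA derives from the 3′ part of a serine transfer RNA precursor. The 3 control libraries came from cells given a negative-control hairpin by the same kind of virus. Every library thus came from lentivirus-transduced cells of a single line, and each arm used its own virus. The sources do not tell if each replicate was transduced on its own or taken from a shared transduced pool, so that the p-values below measure only the spread between these samples, which may be technical.

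Caspases are cysteine proteases that cut their substrates after aspartate and are made as inactive precursors. Initiator caspases are activated on large adaptor platforms and cleave effector caspases, which take the dying cell apart, whereas inflammatory caspases process cytokines and open gasdermin pores. CASP14 stands apart from both classes: it is made mainly in the cornifying layers of the epidermis, where it takes part in the breakdown of filaggrin, and it is not thought to drive cell death.

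Totals ran from 63541413 to 78917459 counts per library, a difference of at most 1.24-fold, and 19628 genes passed the filter on low counts and were tested. Of the 10 luminal and apocrine markers examined, 9 reached 1 CPM (counts scaled to a common library total) in every library, and the 10 together summed to 4628 to 4692 CPM in control and 5851 to 6319 CPM in shtRF. Keratinocyte markers were close to absent apart from KRT10: KRT1, KRT2 and FLG never exceeded 20, 16 and 14 counts, LORICRIN never exceeded 2, and the 5 markers summed to 6.18 to 8.20 CPM in control and 5.13 to 6.0 CPM in shtRF. Of the 5 basal markers, TP63 and ITGB4 reached 1 CPM in every library, and the list summed to 24.6 to 31.8 CPM in control and 37.0 to 44.3 CPM in shtRF, nearly all of it ITGB4. Fibroblast markers summed to 29.8 to 35.7 CPM in control and 20.6 to 21.4 CPM in shtRF, carried by COL1A1, with DCN and COL3A1 at no more than 2 and 4 counts. Leukocyte markers summed to 4.37 to 5.31 CPM in control and 5.75 to 8.17 CPM in shtRF, carried by CD68, with PTPRC and CD3E at no more than 5 and 2 counts, and no endothelial marker reached 1 CPM in every library. The part of these shifts in the caspase values was not tested. In bulk RNA, fewer cells that express a gene and less of its RNA per cell cannot be told apart.

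CASP14 lies on the plus strand of chromosome 19 (GRCh38, 15049384 to 15058293), where 7 exon blocks add up to 3497 bases and share none of them with another gene of the table. The stretch just before its first annotated base is shown beside that of CASP2, the initiator caspase that was lowered by the larger margin, because the 2 upstream regions differ in make-up. They are the plus strand of chr19:15049230-15049383 for CASP14 and of chr7:143288101-143288214 for CASP2, read 5′ to 3′ from RefSeq windows on GRCh38.p14, with matches to the motifs named next in capitals.
CASP14: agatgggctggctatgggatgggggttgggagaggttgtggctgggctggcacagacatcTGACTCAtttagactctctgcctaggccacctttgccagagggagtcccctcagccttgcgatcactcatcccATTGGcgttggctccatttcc
CASP2: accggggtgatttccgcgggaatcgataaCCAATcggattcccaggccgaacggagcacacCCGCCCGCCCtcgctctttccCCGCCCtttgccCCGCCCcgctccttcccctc
The motifs searched on both strands were the AP-1 element, spelled TGANTCA, the CCAAT box, which is named by its letters, the GC box, spelled GGGCGG, and the TATA box, spelled TATAAA. An interferon-stimulated element was searched too, was found in neither stretch and occurs in 3.02% of the windows described next. Overlapping GC boxes run together in the capitals. The CASP14 stretch of 154 bases held 1 AP-1 element and 1 CCAAT box, no GC box or TATA box and 2 CpG dinucleotides, whereas the CASP2 stretch of 114 bases held 4 GC boxes, 1 CCAAT box and 13 CpG dinucleotides. Among 35116 RefSeq windows of 250 upstream bases, 6.57% held the AP-1 element, 42.6% a GC box, 32.01% a CCAAT box and 10.7% a TATA box. The stretches shown are shorter than these windows, so their motif counts cannot be set directly against these shares. The full CASP2 window, for example, held CCAAT boxes 221 and 101 bases before the RefSeq start. In windows of that length CASP14 had 4 CpG dinucleotides and CASP2 had 29 at its upstream start, against a median of 11. A low count was not particular to CASP14. CASP4, which was higher in shtRF, had 2, the CASP8 windows had 6, 5 and 5, and the second CASP2 start had 2. CASP6 had 26 and the CASP9 windows had 29 and 25. An AP-1 match was also found in 1 of the CASP8 windows. A match is a run of letters and not evidence of binding. RefSeq windows were found for 6 of the 8 genes, all but CASP1 and CASP10.

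CASP14 was among the better expressed caspases in control cells and was nearly lost in shtRF cells. It gave 1983, 2672 and 1873 counts in control replicates 1 to 3, and 34, 22 and 21 counts in shtRF replicates 1 to 3. Scaled to depth, these were 30.5, 35.4 and 23.5 CPM in control and 0.484, 0.320 and 0.339 CPM in shtRF. The groups were far apart, since the lowest control library stood 48.5-fold above the highest shtRF library. Mean levels were 29.8 ± 5.99 CPM (SD, n = 3) in control and 0.381 ± 0.0897 CPM (SD, n = 3) in shtRF, a 78.1-fold difference. The fitted log2 fold change was -6.27 (SE 0.17, 95% interval -6.61 to -5.94), the 4th lowest of the 19628 tested genes. Transcript was still counted in all 3 shtRF libraries.

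In control, CASP14 also varied more than the other members with means above 10 CPM. Its coefficient of variation over the control libraries was 20.1%, against a median of 4.96% over 8926 genes with a mean of at least 10 CPM. In shtRF it was 23.5% over libraries of 21 to 34 counts, and CASP1, at a similarly low level there, had 32.6%. In each group the highest CASP14 library was 1.51-fold above the lowest, small beside the gap between the groups.

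Per kilobase of exon, CASP14 stood at 8.87, 10.4 and 6.79 RPKM (counts divided by exonic length and by the library total) in control replicates 1 to 3. The shtRF replicates stood at 0.140, 0.0880 and 0.0945 RPKM. RPKM allows levels of different genes to be set side by side. Ranked by mean RPKM over all 36517 genes, CASP14 was number 4599 in control and number 19962 in shtRF. In control cells the order of mean RPKM was CASP14 (8.68 ± 1.80), CASP6 (7.50 ± 0.66), CASP8 (4.30 ± 0.077), CASP4 (3.77 ± 0.32), CASP2 (2.66 ± 0.087), CASP9 (0.244 ± 0.038), CASP1 (0.0709 ± 0.018) and CASP10 (0.0152 ± 0.0086; SD, n = 3 each). The CASP14 and CASP6 libraries overlapped in control, so the lead of CASP14 over CASP6 was within their spread, while every later neighbour in the order was separated. In shtRF cells the order was CASP6 (8.49 ± 0.42), CASP4 (5.62 ± 0.36), CASP8 (3.46 ± 0.12), CASP2 (1.93 ± 0.093), CASP9 (0.262 ± 0.038), CASP14 (0.107 ± 0.028), CASP1 (0.0933 ± 0.028) and CASP10 (0.00477 ± 0.0067). There CASP14 and CASP1 overlapped, so that their difference was within their spread, while the other neighbours in the order were separated.

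**Figure D1:**
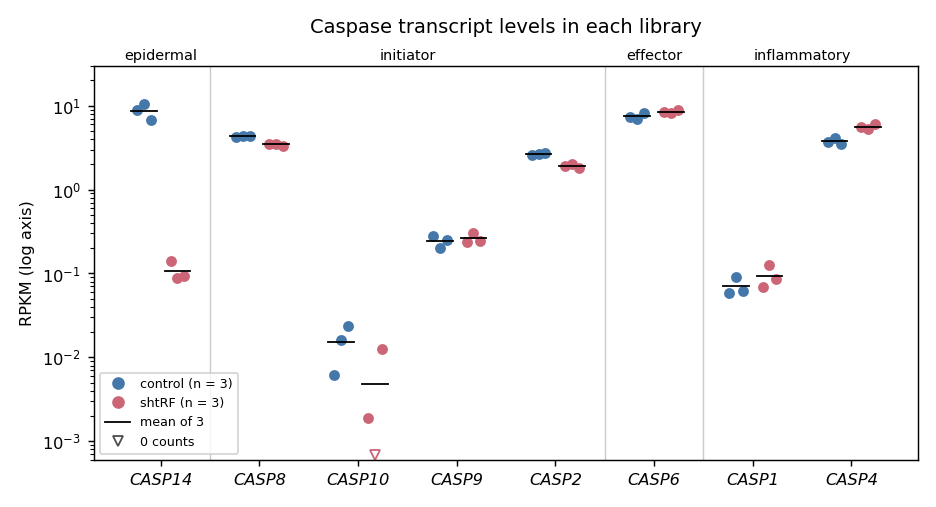
Level of the 8 caspase genes in RPKM on a log axis, grouped by role, with each library as a point (control blue, shtRF red), the mean of 3 as a bar and the library with 0 counts as an open triangle. The CASP14 points fall from between 6.79 and 10.4 RPKM to between 0.0880 and 0.140 RPKM, while no other member with more than a few counts moves by so much.

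With CASP14 nearly lost, other caspases made up most of the family's transcripts in shtRF. In control replicates 1 to 3, CASP14 held 32.8%, 36.1% and 26.2% of the summed RPKM of the 8 genes. In the shtRF replicates its share was 0.704%, 0.451% and 0.460%. The sum over the 8 genes was 27.2 ± 1.41 RPKM (SD, n = 3) in control and 19.96 ± 0.54 RPKM (SD, n = 3) in shtRF. Without CASP14, the other 7 genes summed to 18.2, 18.4 and 19.1 RPKM in control and to 19.7, 19.4 and 20.5 RPKM in shtRF. The sum of these 7 genes therefore lay slightly higher in shtRF, by less than the amount that CASP14 lost. This was not a rise of the apoptotic genes as a group. Mean RPKM was higher in shtRF for CASP4 (3.77 to 5.62) and CASP6 (7.50 to 8.49) and lower for CASP8 (4.30 to 3.46) and CASP2 (2.66 to 1.93). CASP9, CASP1 and CASP10 added little in either group. CASP6 took 27.7 ± 3.80% of the 8-gene sum in control and 42.5 ± 0.96% in shtRF, CASP4 took 13.8 ± 0.47% and 28.1 ± 1.05%, and the share of CASP8 was 15.8 ± 0.91% and 17.4 ± 1.03%.

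**Figure D2:**
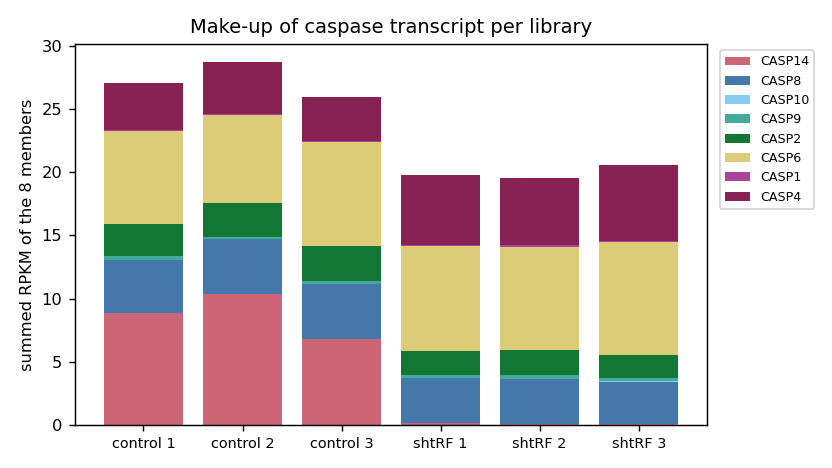
Summed RPKM of the 8 caspase genes in each library, from 0, with each gene as a coloured segment. The CASP14 segment is 26.2% to 36.1% of the control bars and under 1% of the shtRF bars, and the remaining segments sum to 18.2 to 20.5 RPKM in all 6 libraries.

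Over the family, 7 of the 8 genes passed the filter on low counts, CASP10 being the exception. The threshold used throughout was an adjusted p under 0.05 by edgeR's quasi-likelihood test. For the members it serves only to sort a chosen set and tests nothing. It sorted 2 of the 7 as higher in shtRF (CASP4 and CASP6) and 3 as lower (CASP14, CASP8 and CASP2). The remaining 2 did not reach it (CASP9 and CASP1), and CASP6 fell short of it under 7 of the 15 alternatives. Over all 19628 tested genes, 20.6% were called higher and 18.9% lower. The control and shtRF libraries did not overlap for the 5 members sorted as higher or lower, and 48.7% of all tested genes showed such a separation. CASP14 alone differed by over 2-fold, which 3.11% of tested genes did in the lower direction and 2.66% in the higher. The genes had been selected with this contrast known, so nothing is read from these counts or from how they held under the alternatives. The median log2 fold change of the 7 was 0.16, against -0.0025 over all tested genes.

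**Figure D3:**
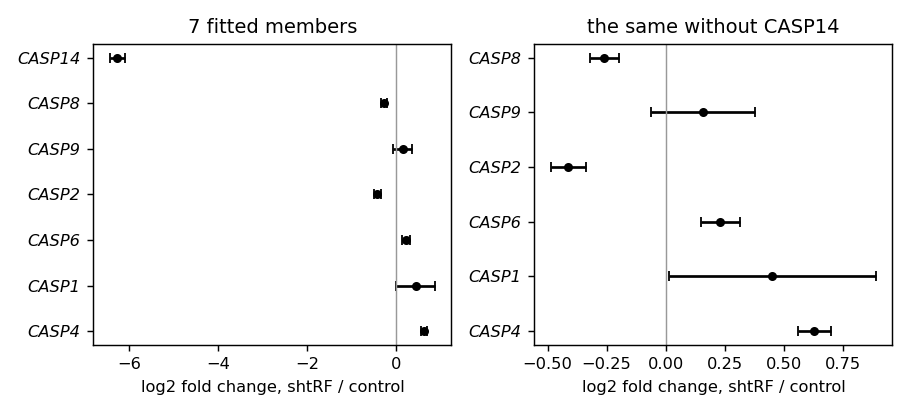
Fitted log2 fold change of shtRF over control for the 7 members that passed the filter, with bars of 1 SE, on an axis that holds CASP14 (left) and on an enlarged axis without it (right). CASP14 lies at -6.27 and the other 6 between -0.41 and 0.63.

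Among the initiator caspases, CASP8 is activated at death receptors, through FADD, and starts the extrinsic pathway. It lies on chromosome 2 (201233443 to 201287711). CASP8 stood at 29.98, 30.5 and 31.2 CPM in control and at 25.4, 26.5 and 24.7 CPM in shtRF. Every shtRF library lay below every control library, and the log2 fold change was -0.26 (SE 0.062), a small shift set against that of CASP14. CASP10, its closest relative and its neighbour on chromosome 2 (201182881 to 201229406), gave 3, 9 and 14 counts in control and 1, 0 and 6 counts in shtRF. These libraries overlapped and the level was too low for a comparison. In these tables both mates of a read pair seem to be counted, since 74.2% to 77.1% of counts from 1 to 4 were even, so the fragments behind such counts may be fewer than the counts.

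CASP2, an initiator that is activated on the PIDDosome and is linked to errors of cell division, lies on chromosome 7 (143288215 to 143307696). CASP2 stood at 20.3, 20.9 and 21.8 CPM in control and at 15.4, 16.8 and 15.01 CPM in shtRF. The groups did not overlap, the log2 fold change was -0.41 (SE 0.074), and after CASP14 this was the lowest value among the fitted members. CASP9, the initiator of the mitochondrial pathway, is on chromosome 1 (15490832 to 15526534). It stood at 1.45, 1.05 and 1.30 CPM in control and at 1.22, 1.68 and 1.32 CPM in shtRF. The libraries overlapped, with a log2 fold change of 0.16 (95% interval -0.27 to 0.59), so changes within that interval were not distinguishable from none.

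CASP6 was the effector caspase among the members, a protease that cuts nuclear lamins and can also act upstream of other caspases. It lies on the minus strand of chromosome 4 (109688622 to 109703583) and shares 5.40% of its exonic bases with CCDC109B. CASP6 stood at 14.0, 13.2 and 15.8 CPM in control and at 16.1, 16.5 and 17.9 CPM in shtRF. The groups were separated by a narrow margin, the lowest shtRF library being 1.02-fold above the highest control library, and the log2 fold change was 0.23 (SE 0.083). CASP6 fell short of the threshold in 4 of the 6 fits that left out a library. These were the fits without control replicate 1 or 2 or shtRF replicate 2 or 3, where the log2 fold change ran down to 0.16. It also fell short with upper quartile scaling and on either log2(RPKM) scale. For a chosen member this is a description and not a test.

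Of the inflammatory caspases, CASP4 binds bacterial lipopolysaccharide in the cytosol and cleaves gasdermin D. It lies on chromosome 11 (104942866 to 104969436). CASP4 stood at 26.4, 29.2 and 25.0 CPM in control and at 40.1, 39.9 and 44.6 CPM in shtRF. All shtRF libraries lay above all control libraries, the lowest of them by 1.37-fold, and the log2 fold change of 0.63 (SE 0.068) was the highest of the fitted members. CASP1, which matures the cytokines IL-1β and IL-18 and is on chromosome 11 too (105025443 to 105035250), was barely expressed. It gave 14, 25 and 18 counts in control and 18, 33 and 20 counts in shtRF. The libraries overlapped, and the log2 fold change of 0.45 (95% interval -0.41 to 1.31) became 0.16 without shtRF replicate 2.

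The fitted log2 fold changes of the apoptotic and inflammatory members were thus of both signs and small, from -0.41 to 0.63, next to -6.27 for CASP14. Those of CASP9 and CASP1 had intervals that include no change. All 6 kept their sign under the 15 alternative analyses, but CASP9 and CASP1 came down to 0.014 and 0.030. These analyses refit the same libraries of chosen members, so nothing is read from this.

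Position on the chromosome was not used to choose CASP14, so its neighbours were tested. Within 500 kb of CASP14 the table held 35 genes, of which 14 were tested, and 3 rose, 1 fell and 10 did not pass. Over all tested genes, 39.5% were called in either direction. Their log2 fold changes ran from -0.54 to 0.23 with a median of -0.05, and none came near that of CASP14. ILVBL, a gene for an enzyme of fatty acid oxidation and the nearest tested gene, was at -0.17 (adjusted p = 0.0566, edgeR). NOTCH3, a receptor of the Notch pathway whose signalling is tied to epidermal differentiation, fell by 0.54 on the log2 scale (SE 0.063, edgeR adjusted p = 4.34e-07). Among the genes that rose were AC006128.2 at 0.23 and AKAP8L at 0.17. The rise of AKAP8L did not pass under 8 of the 15 alternatives, and 68.5% of the exonic bases of AC006128.2 and 31.8% of those of AKAP8L lie in exons of other genes, each other among them, so their reads are hard to part. Neighbours with a mean of at least 1 CPM that did not pass lay at 0.13 (AKAP8), -0.0055 (AC005785.2), -0.06 (NDUFB7), -0.09 (TECR), -0.18 (WIZ) and -0.25 (ZNF333).

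**Figure D4:**
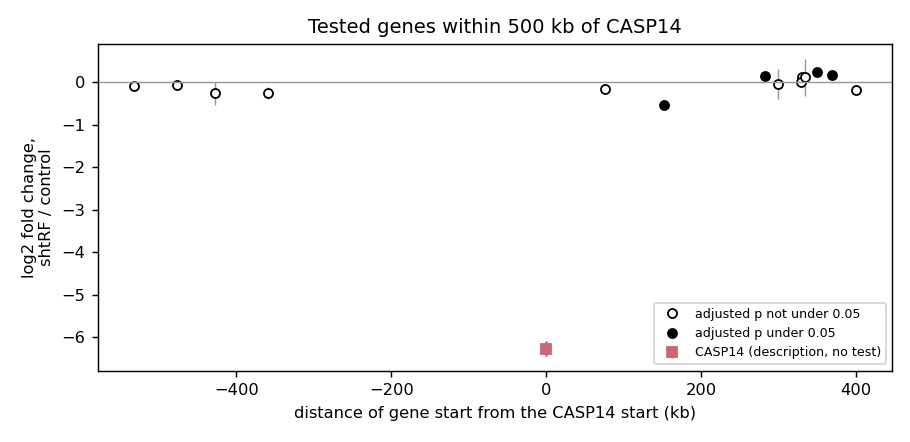
Log2 fold change of shtRF over control, with bars of 1 SE, against the distance in kb from the CASP14 start to the start of each of the 14 tested genes within 500 kb. Filled circles have an adjusted p under 0.05, and all 14 genes lie between -0.54 and 0.23 while CASP14 (red square) lies at -6.27.

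The genes whose levels followed CASP14 most closely over the 6 libraries were MTHFD1L, a mitochondrial folate enzyme (Pearson r of log2(CPM + 0.5) 0.9996), LRPPRC, a regulator of mitochondrial mRNA (0.9995), FASN, the fatty acid synthase (0.9994), CD24, a cell surface sialoglycoprotein (0.999), and LDHA, a lactate dehydrogenase (0.999). The measure is a description over 13188 genes in libraries that share a contrast, and 266 genes had an r above 0.99, since any gene that differs between the groups and is steady within them scores highly. The size of the difference does not enter it: LRPPRC was at 129, 133 and 128 CPM in control and at 89.9, 88.4 and 88.4 CPM in shtRF. FASN was at 532, 537 and 514 CPM in control and at 251, 245 and 245 CPM in shtRF.

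The partners of CASP14 in the epidermis were then examined through a list on cornification and filaggrin processing. Of 41 listed genes 34 were in the table and 18 were tested, of which 5 rose, 3 fell and 10 did not pass (44.4% called, against 39.5% of all tested genes), with a median log2 fold change of 0.09. FLG, the filaggrin precursor and the best known CASP14 substrate, gave 2, 14 and 8 counts in control and 12, 8 and 14 counts in shtRF. The substrate gene was thus at the edge of detection in both groups, with overlapping libraries. BLMH, the bleomycin hydrolase that completes filaggrin breakdown, was at -0.13 (adjusted p = 0.518, edgeR) and TGM1, the cross-linking enzyme of the cornified envelope, at -0.10 (adjusted p = 0.868, edgeR). The changes that passed were found in other genes of the list. IVL, the envelope precursor involucrin, rose by 1.64 on the log2 scale (SE 0.36) from 0.331 to 1.04 CPM. ALOXE3, a lipoxygenase of the skin barrier, rose by 0.99 (SE 0.19) from 1.26 to 2.49 CPM, and SERPINB8, a protease inhibitor that shares 10.7% of its exonic bases with HMSD, by 0.70 (SE 0.17). CDSN, the adhesion protein corneodesmosin, fell by 1.09 (SE 0.096) from 23.7 to 11.2 CPM, but 93.8% of its exonic bases lie in PSORS1C1 and the reads cannot be assigned to it with certainty. The remaining calls lie outside the rule for named genes. ABCA12 fell by 0.48 (SE 0.055) from 161.5 to 115.4 CPM and KRT10 fell by 0.41 (SE 0.12). DMKN rose by 0.36 (SE 0.081) and PPL rose by 0.25 (SE 0.059).

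A list of 24 transcription factors and receptors that act in epidermal differentiation was tested in full. Of these, 6 rose, 9 fell and 9 did not pass (62.5% called, against 39.5% of all tested genes), with a median of -0.09. KLF4, a factor of the skin barrier, rose from 4.24 to 11.1 CPM (log2 fold change 1.38, SE 0.11). POU2F3, a POU factor of the epidermis, rose from 20.9 to 38.6 CPM (0.89, SE 0.072). More of the called genes fell than rose, but calls lay in both directions. The 9 lists were chosen with earlier results of these data known, so their counts are a description. PRDM1, which was picked after its values were seen and lies under the 1 CPM asked of named genes, fell by 3.39 (SE 0.39) from 1.80 to 0.173 CPM.

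**Figure D5:**
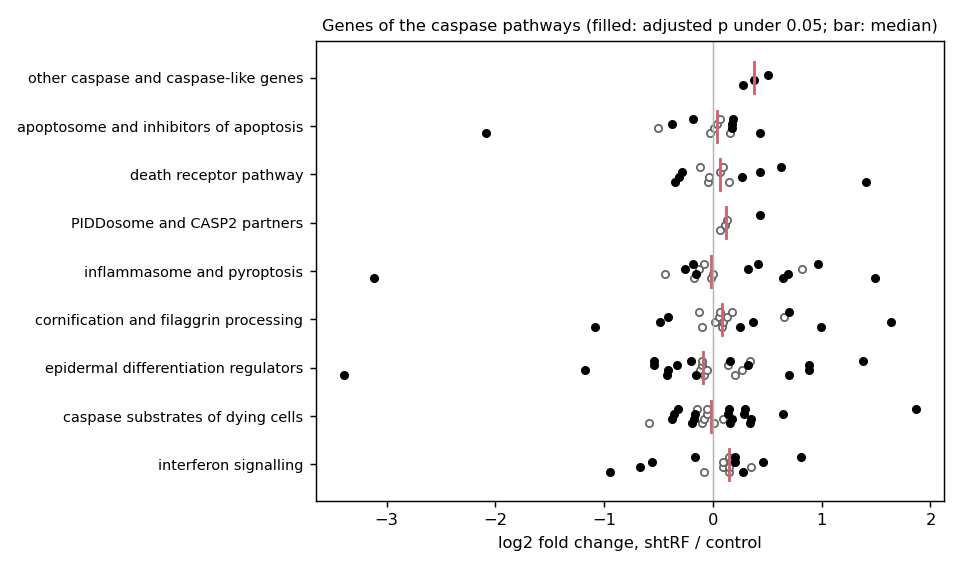
Log2 fold change of shtRF over control for the tested genes of 9 lists around the caspases, 1 row per list, with filled points at an adjusted p under 0.05 and a red bar at the list's median. The medians lie between -0.09 and 0.37, and every list but those of the other caspases and the PIDDosome has filled points on both sides of 0.

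Of 8 caspase and caspase-like genes outside the members, 3 could be tested and all 3 rose, against 20.6% of all tested genes, with a median log2 fold change of 0.37. MALT1, a paracaspase of NF-κB signalling, rose from 19.5 to 25.3 CPM (0.37, SE 0.075).

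Around CASP9, 13 genes of the apoptosome and the inhibitors of apoptosis were tested. Of these, 4 rose, 3 fell and 6 did not pass (53.8% called, against 39.5% of all tested genes), with a median of 0.04. Leaving out any of control replicates 1 to 3 brought the number that rose to 2, and leaving out shtRF replicate 2 or 3 brought it to 1. CYCS, cytochrome c, rose from 300 to 405 CPM (0.43, SE 0.063), whereas APAF1, the scaffold that CASP9 binds, was at 0.0076 (adjusted p = 0.942, edgeR). BIRC5, survivin, fell by 0.38 (SE 0.070), and BIRC6, a giant inhibitor of apoptosis, fell by 0.19 (SE 0.052), a call lost in 1 of 15 alternatives. XIAP, which inhibits CASP9 and the effectors, rose by 0.18 and its antagonist DIABLO by 0.18, and these calls were lost under 9 and 7 of the 15 alternatives. DIABLO shares 21.97% of its exonic bases with another gene. BIRC2 at 0.04 and BIRC3 at -0.51 did not pass (edgeR adjusted p = 0.656 and 0.0760). XAF1, an antagonist of XIAP that was picked after its values were seen, fell by 2.09 (SE 0.29) from 1.36 to 0.322 CPM.

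Around CASP8, 13 genes of the death receptor pathway were tested. Of these, 4 rose, 3 fell and 6 did not pass (53.8% called, against 39.5% of all tested genes), with a median of 0.06. The number that fell was 1 without shtRF replicate 3. Of the TRAIL receptors, TNFRSF10A rose from 11.0 to 16.8 CPM (0.62, SE 0.081). TNFRSF10B fell by 0.31 (SE 0.094) from 9.98 to 8.02 CPM, a fall that did not pass in 1 of 15 alternatives. TNFRSF10C, which lies under the 1 CPM asked of named genes, rose by 1.41 (SE 0.54) from 0.105 to 0.282 CPM. CFLAR, the catalytically inactive relative that holds CASP8 in check and lies beside it on chromosome 2, fell by 0.35 (SE 0.054) from 85.6 to 67.2 CPM. RIPK1, a kinase that CASP8 cleaves, rose by 0.43 (SE 0.052). The adaptor FADD was at 0.14 (adjusted p = 0.0697, edgeR), BID, which CASP8 cuts to reach the mitochondria, was at -0.05 (adjusted p = 0.759, edgeR), and FAS was too low to be tested. Exonic bases shared with other genes came to 54.9% for FADD, 16.6% for TNFRSF10A and 12.03% for CFLAR, so part of their reads is uncertain. Of the 4 genes listed for the PIDDosome and CASP2, RIPK1 alone rose (25.0% called, against 39.5% of all tested genes). PIDD1 at 0.11 and CRADD at 0.06 did not pass, and without control replicate 3 the number that rose was 2.

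The inflammasome and pyroptosis list, which surrounds CASP1 and CASP4, had 17 tested genes of 27 listed. Of the tested genes 6 rose, 4 fell and 7 did not pass (58.8% called, against 39.5% of all tested genes), with a median of -0.016. The number that fell was 2 without control replicate 2 or 3 or shtRF replicate 2, and 1 without shtRF replicate 3. GBP3 and GBP2, guanylate-binding proteins of the family that brings CASP4 to bacteria, rose by 0.96 (SE 0.12) and 0.64 (SE 0.061), to 9.97 and 56.7 CPM. IL18, a cytokine that CASP1 and CASP4 process, rose from 3.34 to 5.40 CPM (0.69, SE 0.13), and CARD8, an inflammasome sensor, rose by 0.41 (SE 0.059). GSDMD, the pore-forming substrate, was at 32.9 CPM in both groups (log2 fold change 0.00011, SE 0.063), and the adaptor PYCARD was at -0.13 (adjusted p = 0.487, edgeR). PYCARD shares 59.7% of its exonic bases with PYCARD-AS1. GSDME, another pore-forming gasdermin, listed under its older symbol DFNA5, was at -0.18 (adjusted p = 0.787, edgeR), and NLRP1 and CARD16 were too low to be tested. IFI16, a DNA sensor picked after its values were seen, fell by 3.12 (SE 0.33) from 1.74 to 0.198 CPM.

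Transcripts of proteins that caspases cleave in dying cells moved both ways, with a median of -0.02. Of 24 tested, 10 were higher, 6 lower and 8 did not pass (66.7% called, against 39.5% of all tested genes). The number higher was 6 without shtRF replicate 2 or 3. GSN, the actin-severing protein gelsolin, rose from 10.7 to 39.1 CPM (1.87, SE 0.068), and KRT18, a keratin of simple epithelia, rose from 386 to 601 CPM (0.64, SE 0.055). GSN shares 22.8% of its exonic bases with another gene and KRT18 shares 16.3% with KRT8. LMNB1, a nuclear lamin, fell by 0.38 (SE 0.060). PARP1, the classic marker of caspase cleavage, fell by 0.17 (SE 0.054), which did not pass in 1 of 15 alternatives, while LMNA at 0.0091, DFFA at -0.10 and DFFB at -0.09 did not pass (edgeR adjusted p = 0.916, 0.199 and 0.5001). These are transcript levels and say nothing of cleavage.

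Interferon induces several caspase genes, CASP1 and CASP4 among them, so its signalling genes were set beside the members. Of 16 tested genes 5 rose, 4 fell and 7 did not pass (56.2% called, against 39.5% of all tested genes), with a median of 0.15. The number that rose was 3 when control replicate 1 or shtRF replicate 3 was left out. IRF7, an interferon regulatory factor, fell by 0.67 (SE 0.10), while IFNAR2, a receptor chain, rose by 0.81 (SE 0.17) from 1.98 to 3.47 CPM. IFNAR2 shares 48.4% of its exonic bases with IL10RB-AS1. IRF1, another factor of the family, was at 0.15 (adjusted p = 0.297, edgeR).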

How the data were processed

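Strand-specific mRNA libraries of MDA-MB-453 cells (3 control, 3 shtRF) were sequenced as read pairs. Per the submitters' processing notes the tools included Trimmomatic 0.36, featureCounts of Subread 1.5.1 and edgeR 3.12.1, with genome build GRCh38; the aligner and the strand setting of the counting are not given in the sources used here. The authors deposited raw counts per gene, used here as they stand. The RPKM values that the authors deposited equalled count over exonic length and library total for 4991 genes compared (100% within 0.1%), and RPKM was recomputed in this way for all genes. Groups were taken from the sample titles.

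Counts were fitted with edgeR 4.0.16 (R 4.3.3; filterByExpr with a minimum count of 10, TMM, quasi-likelihood test, group as the only term), with p-values adjusted by Benjamini-Hochberg over 19628 genes. CPM used TMM-scaled totals, and each SE is the size of the log2 fold change over the square root of its F value. The common coefficient of variation between replicates was 7.56%. The members and the 9 gene lists were chosen with earlier results of these data known. Of 177 list entries, 169 were in the table, 3 of them under an older symbol taken from RefSeq. Named were the members, a set of partners, the 3 genes of each list with the largest passing change and a mean of at least 1 CPM, the 5 genes most like CASP14 (mean of at least 2 CPM) and its neighbours of at least 1 CPM within 500 kb. Some genes that this rule names are not reported here. In the neighbourhood, 127 rows that join several loci or span over 3 Mb were left out. Alternatives were RLE and upper quartile scaling, 2 other count filters, DESeq2 1.42.0, limma-trend 3.58.1 on log2(RPKM + 1) and log2(RPKM + 0.1), halved counts, a replicate block and each library left out.

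Replicate numbers did not pair the libraries: the deviations of same-numbered libraries correlated at 0.0185, -0.0029 and 0.0045.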

Additional observations from a re-analysis of the deposited data

How the results depend on the processing

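No member and no named gene that passed the threshold reversed its direction under the 15 alternatives. On log2(RPKM + 1) and log2(RPKM + 0.1), scales that compress low levels, CASP14 was at -3.11 and -5.39, CASP1 at 0.030 and 0.17, and CASP4 on the former at 0.47. On these scales 88 and 294 genes were over 2-fold higher and 107 and 404 over 2-fold lower, against 522 and 611. With each library left out in turn, CASP14 ran from -6.50 to -6.14, CASP1 from 0.16 to 0.67 and the others kept within the spread of their replicates. Leaving out a library moved the number of list genes that rose to 1 to 3 for the apoptosome, 1 to 2 for the PIDDosome, 6 to 9 for caspase substrates and 3 to 4 for interferon signalling, and the number that fell to 1 to 3 for death receptors and 1 to 4 for the inflammasome. Upper quartile scaling gave 1 apoptosome gene, 6 substrates and 3 interferon genes that rose, a filter of at least 10 counts in every library gave 6 substrates, and limma-trend on both RPKM scales gave 2, 6 and 3. With log2(RPKM + 1), 2 death receptor genes rose and 2 inflammasome genes fell. The share of CASP14 by CPM in place of RPKM was 23.9% in control and 0.376% in shtRF. Within 250 kb of CASP14, 3 genes were tested, of which 1 rose and 1 fell. For single named genes outside the members, 895 values kept their side of the threshold, 37 lost it and 11 gained it.

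With the replicate number as a block, CASP14 was at -6.28 and CASP4 at 0.63, and 4123 genes were higher and 3776 lower, against 4046 and 3704. The numbers do not pair the libraries, so this is given only as a setting, and it moved none of these counts by over 1.5 times.

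Depth limits CASP1, CASP9 and CASP10, whose few counts left a wide interval or no fit. All 6 libraries come from a single cell line. The 3 control libraries carry the control hairpin and the 3 shtRF libraries the hairpin against tRF-1-Ser. No second hairpin against tRF-1-Ser is named in the labels.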
